A study of Rattus norvegicus with 6 samples.

Results

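The T-box transcription factors were followed through 6 RNA-sequencing libraries of primary rat nucleus pulposus cells, the cells of the soft core of the intervertebral disc. The members were fixed by name as Tbx1, Tbx2, Tbx3, Tbx4, Tbx5, Tbx15, Tbx18 and Tbx20, and a member was any row of the gene table that carried one of these names. Of these 8 names, 5 had a row among the 19088 rows of the table, each on a single row. Tbx4, Tbx5 and Tbx20 had no row, are reported here as not detected, and have no value below. The members were chosen by their counts in these same libraries, so their own differences are described without a test.

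Both groups were Sprague Dawley (strain SD) cells in culture medium with fetal bovine serum. The rShh group (n = 3) received recombinant Sonic hedgehog, the secreted ligand of the Hedgehog pathway, at 200 ng/ml in DMSO for 48 h. The Control group (n = 3) received DMSO alone for 48 h. The labels give no age, sex, number of animals or pooling, and do not say that replicates were separate cultures, so spreads between samples may be technical.

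T-box proteins share a DNA-binding domain, the T-box, that recognises short sites around the bases AGGTGT. They set the position and fate of mesenchyme, heart and limb cells in the embryo, and members act as activators, as repressors or as both. Tbx2 and Tbx3 are mainly repressors, Tbx1 patterns the pharyngeal region, Tbx4 and Tbx5 mark the hindlimb and the forelimb, and Tbx20 is a heart factor. Tbx15 and Tbx18 are closely related factors of skeletal and somite-derived mesenchyme, and Tbx18 is also known from epicardium and ureter. Brachyury, the founding member of the family, is the classical marker of the notochord, from which the nucleus pulposus forms.

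The libraries held 50758195 to 55501124 counts over genes in the Control group and 65116846 to 70031072 in the rShh group. Genes of the Y chromosome separated the groups: Ddx3, Eif2s3y and Kdm5d had 0 counts in each Control library and 6357 to 7120, 3871 to 4159 and 2235 to 2335 counts in rShh. The treatment and this difference between the cells coincide in all 6 libraries and cannot be told apart. Control replicate 1 also stood apart in heart muscle transcripts, with 507 counts of Myh6 and 261 of Myh7, both at 0 in the other 5 libraries. The check on the labelled cell type was mixed: Brachyury (searched as T and Tbxt), Krt19 and Noto had no row, and Krt18 had 9, 0 and 0 counts in Control and 0, 0 and 4 in rShh. Acan, Pax1, Foxf1 and Cd24 were present in every library. Col2a1 was low, with 97, 87 and 76 counts in Control and 17, 4 and 0 in rShh. Ca12 had 0, 0 and 4 counts in Control and 79, 136 and 109 in rShh. FPKM are the fragment counts scaled to transcript length and library size that the authors deposited. Here and below, rose and fell mean an adjusted p under 0.05 in edgeR's quasi-likelihood test over all genes. Of 14 tested nucleus pulposus and notochord markers, 6 rose and 6 fell in the rShh group (42.9% each, beside 31.5% and 28.8% of all genes tested). Their summed level was 135 to 142 FPKM in Control and 264 to 271 in rShh. The largest part of this difference was Acan, at 6.80 ± 0.905 FPKM in Control and 71.0 ± 1.11 in rShh. Among those that fell, Cd24 went from 23.2 ± 1.75 to 7.04 ± 0.607 FPKM and Krt8 from 5.42 ± 0.287 to 0.905 ± 0.119.

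The promoters of Tbx1 and Tbx15, the 2 members near 0 in the Control group, are shown beside that of Tbx18, the member found in every library at a like level. Each is the 250 bases before an annotated start in RefSeq (build GRCr8, which may not be that of the gene coordinates given further on), 5′ to 3′ on the gene's strand, with matches to 3 searched motifs in capitals.
Tbx1, chr11:95913360-95913609, plus strand: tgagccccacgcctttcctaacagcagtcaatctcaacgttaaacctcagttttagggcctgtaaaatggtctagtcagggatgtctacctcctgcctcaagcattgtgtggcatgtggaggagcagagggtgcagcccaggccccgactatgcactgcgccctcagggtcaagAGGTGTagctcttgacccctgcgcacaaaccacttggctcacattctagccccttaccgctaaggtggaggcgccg
Tbx15, chr2:189265123-189265372, plus strand: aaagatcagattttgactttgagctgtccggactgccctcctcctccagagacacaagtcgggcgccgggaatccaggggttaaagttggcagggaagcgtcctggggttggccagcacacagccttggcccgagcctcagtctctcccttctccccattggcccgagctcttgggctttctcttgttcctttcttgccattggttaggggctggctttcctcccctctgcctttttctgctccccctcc
Tbx18, chr8:97559966-97560215, minus strand: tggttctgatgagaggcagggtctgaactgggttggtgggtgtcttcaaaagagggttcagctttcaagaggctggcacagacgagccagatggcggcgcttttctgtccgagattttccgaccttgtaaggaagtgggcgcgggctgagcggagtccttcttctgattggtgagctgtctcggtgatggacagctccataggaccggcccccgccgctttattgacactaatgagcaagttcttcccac
The motifs were AGGTGT (the core of the T-box half-site), GGGTGG (the core of the site bound by GLI proteins, the transducers of Hedgehog signalling) and TGTTTAC (a forkhead site), each on both strands. The Tbx1 window held 1 match, to AGGTGT, starting 76 bases before the annotated start. The Tbx15 and Tbx18 windows held none. A second annotated Tbx1 start downstream had GGGTGG once on each strand in its 250 bases. Over all 33465 such windows, 11.6% held AGGTGT, 26.1% held GGGTGG and 3.21% held TGTTTAC. The Tbx1, Tbx15 and Tbx18 windows had 8, 7 and 12 CpG dinucleotides. Over all windows the median was 5 and the quartiles were 2 and 15, so these counts lie within the common range. These matches describe letters in short windows and are not binding sites.

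Of the 5 members with a row, 4 were higher in every rShh library than in any Control library: Tbx1, Tbx2, Tbx3 and Tbx15. Tbx18 was at about the same level in both groups. Of all 14775 genes tested, 35.7% lay apart in this direction and 68.1% in either direction. Because the members were proposed from this contrast, the count is not evidence of anything beyond the values themselves. In these bulk libraries, a change in the share of cells that express a gene and a change in RNA per cell cannot be told apart.

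**Figure D1:**
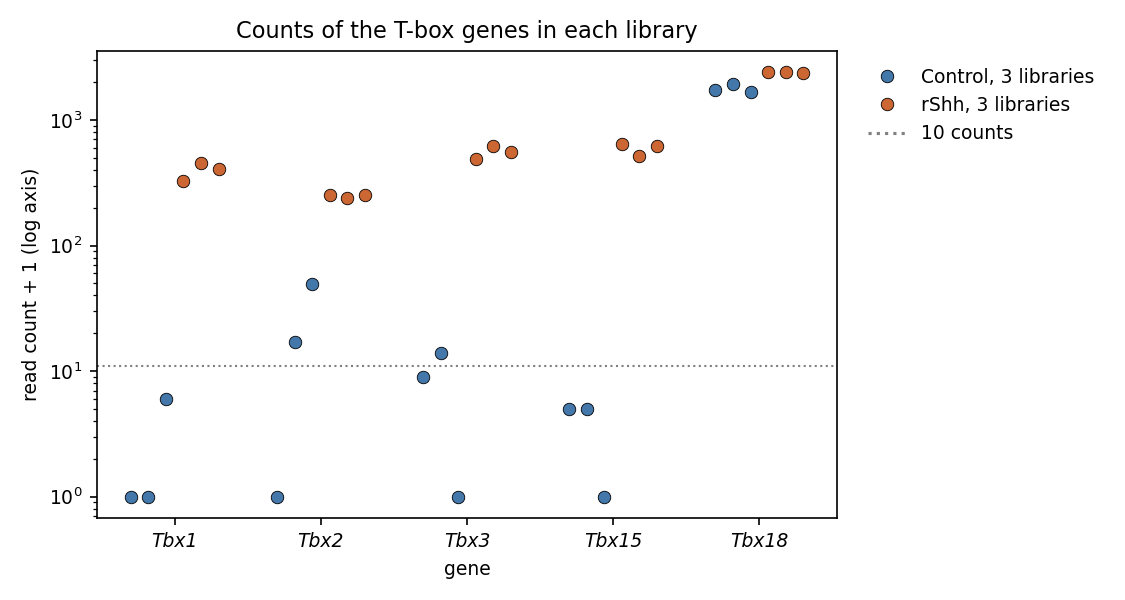
Read counts of the 5 T-box genes with a row (x axis) on a log axis as count + 1, with 1 point per library, Control in blue and rShh in orange, and a dotted line at 10 counts. Tbx1, Tbx3 and Tbx15 lie at or below 13 counts in Control and at 327 or more in rShh, Tbx2 has Control libraries at 0, 16 and 48, and Tbx18 is above 1600 everywhere.

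Tbx15, a factor of limb and axial skeletal mesenchyme (ENSRNOG00000019565, chromosome 2, 201289357 to 201390745, plus strand, in the coordinates of the deposited table), had 4, 4 and 0 counts in Control and 643, 512 and 617 in rShh. All 3 Control libraries were near 0 and all 3 rShh libraries had 512 counts or more. In CPM, counts scaled to library size, its level went from 0.0484 ± 0.0420 to 8.92 ± 1.38 CPM (mean ± SD, n = 3). The ratio of the summed counts, 8 against 1772, was 179-fold with an exact 95% interval of 90.5 to 414, which covers counting error only. With its own highest Control count of 4 and lowest rShh count of 512 as limits, 5 of the 19088 rows lay at least as far apart. They were Tbx15 itself and 4 genes of the Y chromosome. Limits set in the same way from Tbx1, Tbx3 and Tbx2 were met by 11, 14 and 68 rows. Since the limits are each member's own counts, these numbers are a description and no test.

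Tbx1 (ENSRNOG00000001892, chromosome 11, 86552022 to 86560969, plus strand) had 0, 0 and 5 counts in Control and 327, 451 and 404 in rShh. A count of 0 allows up to 3 counts, which is 0.0530 to 0.0591 CPM in Control, so traces at that level would not be seen. The level was 0.0329 ± 0.0569 CPM in Control and 5.91 ± 0.740 CPM in rShh (n = 3). The summed counts of 5 and 1182 give a ratio of 191, with an exact 95% counting interval of 81.5 to 588. All 5 Control counts came from replicate 3, and without that library the fitted log2 change went from 7.47 (SE 0.56) to 11.52. It was 6.88 and 6.92 without Control replicates 1 and 2. In the fit that gave 11.52 both remaining Control libraries were at 0, so that value is no measured fold.

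Tbx3 (ENSRNOG00000008706, chromosome 12, 42480560 to 42492526, minus strand) is a transcriptional repressor with roles in heart conduction, limb and mammary development. It had 8, 13 and 0 counts in Control and 486, 619 and 551 in rShh. The lowest rShh library was far above the highest Control library. The level was 0.128 ± 0.122 CPM in Control and 8.28 ± 0.687 CPM in rShh (n = 3). The ratio of summed counts, 21 against 1656, was 63.6, with an exact 95% counting interval of 41.5 to 103. The log2 change of 5.97 (SE 0.46) became 6.76 without Control replicate 2.

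Tbx3 was the only member with more than 1 transcript in the isoform table. The transcript with 7 exons and 2962 bases carried all Control counts, in the 2 Control libraries that had any. In the rShh libraries it carried 92.4%, 93.7% and 94.2% of the gene's counts, and the transcript with 8 exons and 2232 bases carried 7.61%, 6.30% and 5.81%, or 37, 39 and 32 counts. With 21 Control counts in all, a share of this size could not be measured in Control.

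Tbx2 (ENSRNOG00000003517, chromosome 10, 73279119 to 73289921, plus strand), the paralogue of Tbx3 and likewise a repressor, varied among the Control libraries, at 0, 16 and 48 counts. The rShh libraries were close to each other, at 251, 237 and 250 counts. The level was 0.415 ± 0.484 CPM in Control, where the SD exceeds the mean, and 3.71 ± 0.263 CPM in rShh (n = 3). The means differ 8.93-fold, and the ratio of summed counts, 64 against 738, was 9.30 with an exact 95% counting interval of 7.20 to 12.2. That interval leaves out the spread between samples, which was wide in Control. The log2 change of 3.18 (SE 0.74) was 4.64 without Control replicate 3 and 2.57 without Control replicate 1.

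Tbx18 (ENSRNOG00000010685, chromosome 8, 95359354 to 95387363, minus strand) had 1732, 1920 and 1679 counts in Control and 2410, 2403 and 2347 in rShh. The raw counts do not overlap, but the rShh libraries were deeper. In CPM the Control libraries were at 30.6, 35.8 and 33.1 and the rShh libraries at 37.4, 34.5 and 35.8, so the groups overlapped. The log2 change was 0.12 (SE 0.08), and the ratio of summed counts was 1.08, with an exact 95% counting interval of 1.05 to 1.12 that leaves out the spread between samples. A pseudogene on the opposite strand overlaps the Tbx18 row and had 1 to 6 counts per library.

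A member was called near 0 in a group when every library of that group had at most 10 counts and every library of the other had more. Tbx1 and Tbx15 met this in Control and no member met it in rShh. Over all 19088 rows, 1.79% met it in Control and 0.367% in rShh. The count depends on where the line is drawn. No member met it at 3 counts, since Tbx1 and Tbx15 had up to 5 and 4 counts, and Tbx3 joined them at 30 counts and at an FPKM of 0.1, just above its highest Control values of 13 counts and 0.0660 FPKM. Tbx2 met none of these lines.

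Levels of different genes were compared in FPKM. In the Control group Tbx18 was at 6.01 ± 0.424 FPKM and Tbx2 at 0.313 ± 0.366, with Tbx3, Tbx1 and Tbx15 at 0.0350 ± 0.0332, 0.0133 ± 0.0231 and 0.0105 ± 0.00907 (n = 3). Tbx18 stood above all others in every Control library, and the order of the remaining 4 cannot be read, since their ranges all reach 0. In the rShh group Tbx18 was again first at 6.55 ± 0.161 FPKM. Tbx2, Tbx1, Tbx3 and Tbx15 followed at 2.84 ± 0.172, 2.68 ± 0.374, 2.31 ± 0.226 and 2.16 ± 0.308 FPKM, with each neighbouring pair in that order overlapping between libraries. The order among these rests on annotated transcript lengths, which ran from 1095 bases for Tbx2 to 4611 for Tbx18. In CPM, which leaves length out, Tbx2, Tbx1, Tbx3 and Tbx15 stood in the reverse order in rShh, at means of 3.71, 5.91, 8.28 and 8.92.

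Summed over the 5 genes, T-box transcripts made up 6.38 ± 0.619 FPKM in Control and 16.5 ± 0.385 in rShh. Tbx18 alone was 94.4% ± 5.22 of this sum in Control, at 99.0%, 95.5% and 88.8% per library. It was 39.6% ± 1.25 in rShh, at 41.1%, 39.1% and 38.7%. Like the order of levels, these shares rest on annotated transcript lengths.

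**Figure D2:**
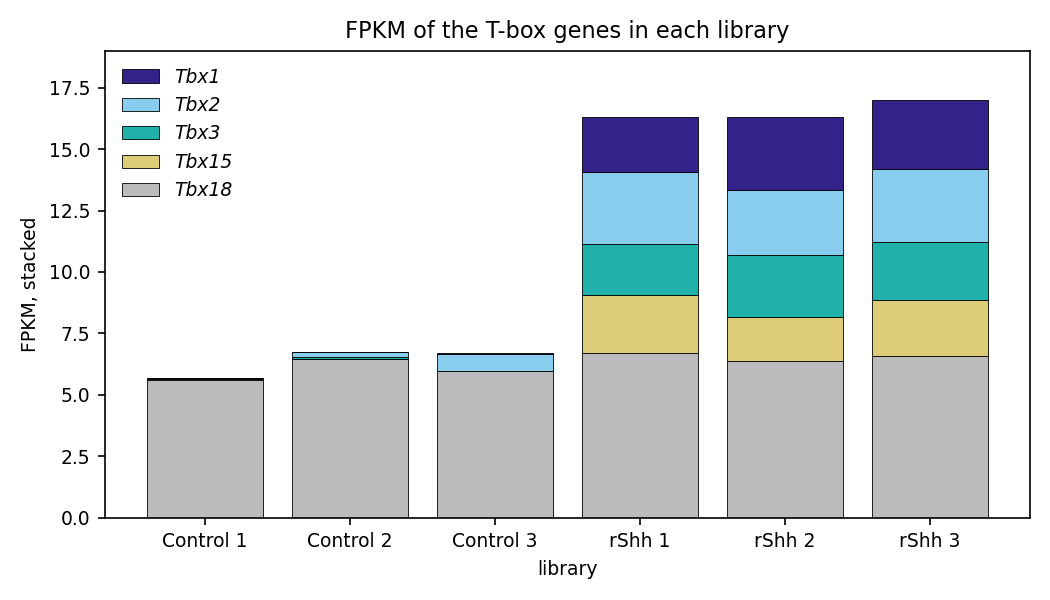
Stacked FPKM of the 5 T-box genes (y axis) in each of the 6 libraries (x axis), 1 colour per gene. The grey Tbx18 part is 5.62 to 6.70 FPKM high in every library, and the other 4 genes add 9.62 to 10.4 FPKM in rShh and 0.0547 to 0.755 in Control.

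Of the 6 other T-box genes with a row, 3 had counts enough to test and 1, Mga, passed. Mga, a large scaffold protein that joins a T-box to the MAX network, had 2060, 1805 and 1118 counts in Control and 2842, 3453 and 3075 in rShh. It rose by a log2 change of 0.61 (SE 0.15, adjusted p = 0.00604 by edgeR's quasi-likelihood test over all genes), in a fit where 60.3% of genes were called. Tbx19, a pituitary factor, had 56, 31 and 13 counts against 18, 14 and 21, and did not pass (edgeR adjusted p = 0.116). Tbx6, which patterns the tissue that forms somites, had 11, 0 and 0 counts against 13, 19 and 20 (edgeR adjusted p = 0.152). All Tbx6 counts of the Control group came from replicate 1, the library with heart muscle transcripts. A link to those transcripts was not tested. Without that library both remaining Control libraries were at 0, and the log2 change went from 1.93 to 6.99 (edgeR adjusted p = 0.00455). That fit rests on at most 20 counts of Tbx6 per library, and 6.99 is no measured fold. Tbx22, Tbr1 and Tbx10 had at most 14 counts in any library and were not tested. Brachyury, Tbx21 and Eomes had no row.

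In RefSeq, Tbx2 and Tbx4 are direct neighbours on chromosome 10, and Tbx3 and Tbx5 on chromosome 12 have no protein-coding gene between them. In both linked pairs, the member that had counts in rShh lies beside one with no row. Around each member the nearest 3 tested genes with a symbol on either side were examined. Of these 30 flanking genes, 11 rose, 7 fell and 12 did not pass, which is 36.7% and 23.3% beside 31.5% and 28.8% of all genes tested. Their median log2 change was 0.15, and that of all genes was 0.01.

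Calls among neighbours differed from member to member, with 6 genes for each, where 31.5% of all genes tested rose and 28.8% fell. Beside Tbx15, none of 6 rose. Phgdh, an enzyme of serine synthesis, fell by 1.12 on the log2 scale (edgeR adjusted p = 3.11e-07), and Wars2, whose start lies 117 kb from that of Tbx15, was at a log2 change of -0.07 (SE 0.20). Beside Tbx3, none rose and 4 fell, namely Rbm19, Med13l, Rnft2 and Fbxw8, by 0.27 to 0.58 on the log2 scale. The call of Med13l was lost without Control replicate 2 (edgeR adjusted p = 0.0503) and with limma on log2(FPKM + 1) and log2(FPKM + 0.1) (limma adjusted p = 0.0541 and 0.0627). Beside Tbx1, the replication factor Cdc45 rose from 2.53 ± 0.855 to 9.41 ± 0.305 CPM (edgeR adjusted p = 4.64e-05) and Ufd1 rose by 0.36 on the log2 scale, while Gnb1l fell by 0.70. Septin5, next to Tbx1 on the other side from Gnb1l, was at a log2 change of 0.02 (SE 0.07). The call of Gnb1l was lost without single libraries. Its edgeR adjusted p was 0.0464, and 0.0585 to 0.192 without Control replicate 1, Control replicate 3, rShh replicate 2 or rShh replicate 3. It was also above the threshold without the filter on low counts (0.0610) and with limma on both FPKM scales (limma adjusted p = 0.0521 and 0.0654). Txnrd2, which did not pass, had an edgeR adjusted p of 0.0179 without rShh replicate 2.

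Beside Tbx2, 4 of 6 rose: Appbp2, Usp32, Med13 and Brip1, a DNA repair helicase, whose log2 change of 2.68 (SE 0.25) was the highest of the 30. Ppm1d, which did not pass, had an edgeR adjusted p of 0.0272 without Control replicate 1. Beside Tbx18, whose own level overlapped between the groups, 5 of 6 rose: Cep162, Mrap2, Nt5e, Snx14 and Syncrip, by log2 changes of 0.62 to 2.05. Of all genes tested, 31.5% rose, and 6 genes per member are few. These are the nearest tested genes and can lie far off. Relative to the start of Tbx18, Cep162 and Nt5e, the nearest on either side, start at -496.1 and 609.3 kb. For Tbx2, Ppm1d and Brip1 start at -369.6 and 228 kb. Nt5e encodes CD73, a surface enzyme used as a marker of cultured mesenchymal cells.

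**Figure D3:**
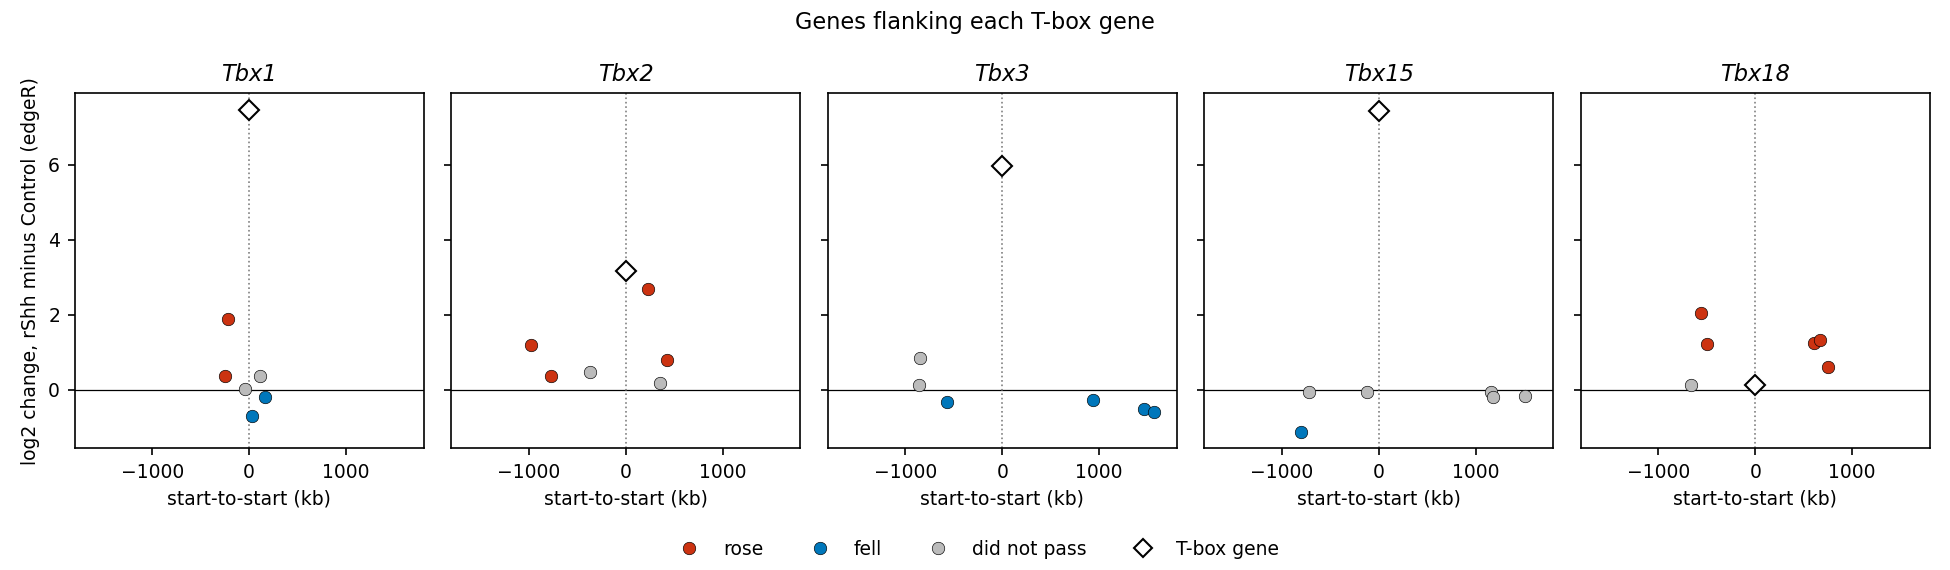
Log2 change between rShh and Control (y axis) of the 6 genes flanking each T-box gene, by the distance between gene starts in kilobases (x axis), 1 panel per T-box gene, shown as an open diamond. Red and blue points passed the edgeR test and grey ones did not. Tbx1, Tbx3 and Tbx15 lie far above all their neighbours, and Tbx18 lies near 0 with 5 of its 6 neighbours in red above it.

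Partner transcription factors, which bind DNA together with T-box proteins or act beside them in heart, limb and muscle, were examined as a list. Among the 15 tested, 5 (33.3%) were called higher and 3 lower, beside 31.5% and 28.8% of all genes tested, 7 did not pass, and the median log2 change was 0.06. Egr1, an immediate early factor that also binds Tbx2, rose from 17.7 ± 3.76 to 286 ± 19.3 CPM (edgeR adjusted p = 1.06e-08, a log2 change of 4.02 with an SE of 0.14). Mef2c, a factor of heart, muscle and cartilage, rose from 8.68 ± 0.872 to 44.0 ± 3.19 CPM. Eya1, a transcriptional coactivator and phosphatase, rose from 0.119 ± 0.147 to 2.52 ± 0.178 CPM, and its log2 change of 4.34 (SE 0.68) was 5.96 without Control replicate 1. Pax3, a dermomyotome and neural crest factor, had 23, 13 and 15 counts in Control and 0 in each rShh library. Sall4 fell from 0.690 ± 0.223 to 0.110 ± 0.0385 CPM. Gata5, Isl1, Pitx1 and Alx4 had no row.

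Corepressors that T-box repressors recruit formed the next list. Among the 12 tested, 2 (16.7%) were called higher and 3 lower, beside 31.5% and 28.8% of all genes tested. The other 7 did not pass, and all 12 had log2 changes between -0.49 and 0.70. Rb1 rose from 15.2 ± 3.33 to 24.8 ± 2.70 CPM and Cbx3, a heterochromatin protein, from 94.6 ± 5.64 to 122 ± 4.34. Mta1 and Hdac2, subunits of deacetylase complexes, fell from 106 ± 7.98 to 75.8 ± 0.872 and from 116 ± 5.69 to 97.3 ± 3.20 CPM. Tle3, a Groucho corepressor, fell from 53.4 ± 2.70 to 43.9 ± 2.49 CPM. With upper-quartile scaling 6 of the 12 fell instead of 3.

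Genes described elsewhere as T-box targets are activated or repressed depending on the factor. Among the 22 tested, 9 (40.9%) were called higher and 8 (36.4%) lower, beside 31.5% and 28.8% of all genes tested. The other 5 did not pass, and the median log2 change was 0.35, where that of all genes was 0.01. Flt4, a lymphatic growth factor receptor described as a Tbx1 target, rose from 1.45 ± 0.724 to 78.8 ± 1.91 CPM (edgeR adjusted p = 2.59e-08). Il33, an alarmin cytokine, rose from 0.247 ± 0.0465 to 14.8 ± 4.66 CPM, and Ndrg1, described as repressed by Tbx2, from 23.3 ± 3.34 to 60.1 ± 1.84. Fgf10, a growth factor activated by Tbx4 and Tbx5 in limb and lung, fell from 303 ± 28.0 to 82.9 ± 6.62 CPM (edgeR adjusted p = 4.45e-08). Cdkn1a, the cell cycle inhibitor p21 and a described target of Tbx2 repression, fell from 684 ± 28.8 to 331 ± 7.41 CPM, while Ndrg1 moved the other way. Hcn4, the pacemaker channel of the sinus node, fell from 49.3 ± 3.15 to 23.2 ± 0.795 CPM.

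Genes described as upstream regulators of T-box genes had a median log2 change of -0.11. Among 22 tested genes, 3 (13.6%) rose and 8 (36.4%) fell, beside 31.5% and 28.8% of all genes tested, and 11 did not pass. Without Control replicate 1, 7 passed as higher in place of 3. Foxc1, a forkhead factor that links Hedgehog signals to Tbx1 in the pharyngeal region, rose 1.99-fold (edgeR adjusted p = 1.66e-06). Of the other forkhead genes on this list, Foxc2, Foxa2 and Foxa1 fell, with values under other observations, and Foxf1 did not pass. Bmp2, a ligand of the pathway that induces Tbx2 and Tbx3 in several tissues, rose from 6.59 ± 0.150 to 17.8 ± 1.01 CPM, while Bmp4 fell from 631 ± 23.2 to 404 ± 7.62. Ptch1, the Hedgehog receptor and itself a target of the pathway, rose from 12.5 ± 1.65 to 32.6 ± 1.61 CPM. Gli1, the other classical Hedgehog target, had 22, 0 and 0 counts in Control and 25, 35 and 30 in rShh and did not pass (edgeR adjusted p = 0.200). All its Control counts came from replicate 1, the library with heart muscle transcripts, and a link to those transcripts was not tested. The retinoic acid receptors Rarg and Rara fell from 140 ± 6.76 to 84.7 ± 3.38 and from 42.3 ± 0.902 to 24.4 ± 2.48 CPM.

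**Figure D4:**
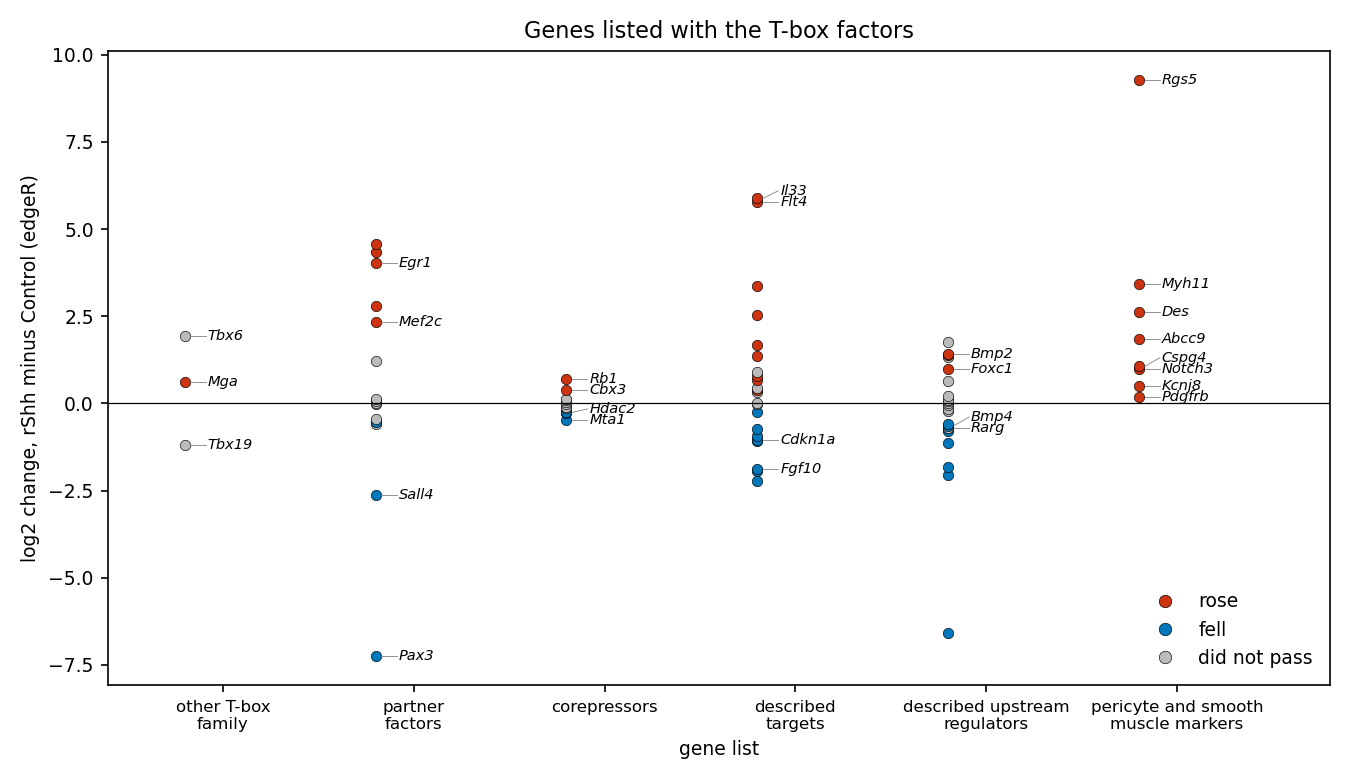
Log2 change between rShh and Control (y axis, edgeR) of every tested gene in 6 lists (x axis), red where it rose, blue where it fell and grey where it did not pass, with some genes named. Partner factors and described targets hold both red and blue points, corepressors stay between -0.49 and 0.70, and all 8 pericyte and smooth muscle markers lie above 0. Pax3 and Rgs5 had 0 counts in 1 group, so the height of their points depends on the prior count of the fit.

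Markers of other cell types were read beside the T-box genes, since T-box factors differ between mesenchymal cell types. All 8 pericyte and smooth muscle markers rose, where 31.5% of all genes tested did, with a median log2 change of 1.45, and their summed level was 68.0 to 70.0 FPKM in Control and 141 to 143 in rShh. Myh11, smooth muscle myosin, rose from 24.4 ± 3.25 to 263 ± 12.0 CPM. Tbx18, itself known from mural cells of blood vessels, overlapped between the groups. The pericyte marker Rgs5 had 0 counts in each Control library and 84, 87 and 89 in rShh. Of 4 tested mesothelial and epicardial markers, 1 rose and 2 fell, with Wt1 at 0.757 ± 0.451 and 0.0383 ± 0.0664 CPM. Their sum was 1.60 to 2.26 FPKM against 2.43 to 2.74. Msln, the marker that rose, went from 0.405 ± 0.0582 to 2.35 ± 0.203 FPKM, while Upk3b fell from 1.31 ± 0.215 to 0.114 ± 0.0750. Pecam1, Cdh5, Kdr, Ptprc, Myod1, Myog, Krt5 and Krt14 had no row. The 3 endothelial markers with a row summed to 0.873 to 1.25 FPKM in Control and 0.341 to 0.364 in rShh, where Tek fell. The 3 leukocyte markers summed to at most 0.437 and 0.513 FPKM, and the 2 epithelial markers to at most 0.144. Heart muscle markers summed to 4.05 FPKM in Control replicate 1 and to at most 0.738 in the other libraries. Skeletal muscle markers, mostly Acta1, summed to 32.4 to 53.3 FPKM in Control and 45.8 to 57.7 in rShh. Schwann cell markers, mostly S100b, which cartilage-like cells also express, summed to 107 to 122 FPKM in Control and 34.4 to 38.2 in rShh. The part of such cells in the T-box differences was not tested.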

How the data were processed

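Poly(A) RNA of 3 Control and 3 rShh samples was sequenced as 150-nt read pairs, per the labels' protocols. The authors deposited whole-number counts and FPKM values for 19088 genes and 24343 isoforms. The submitters' processing notes name StringTie 1.3.4d, HISAT2 2.0.4, edgeR, DESeq2 and cutadapt 1.9, with no roles. The second cDNA strand was marked with dUTP, per the labels' protocols. Not given in the sources used here: the build, and whether counting used strand. Printed gene coordinates are the deposited ones.

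The deposited counts were tested with edgeR 4.0.16 in R 4.3.3 (filterByExpr with a minimum count of 10, TMM scaling, glmQLFit and glmQLFTest, two-sided, group as the only term). Benjamini-Hochberg adjustment ran over 14775 genes, with 0.05 as the threshold. CPM are TMM-scaled, and SEs are the log2 change over the root of F. The common biological coefficient of variation was 12.7%. Replicates differed beyond sampling noise (chi-square per degree of freedom 10.5 to 50.5). The scripts were tested on simulated counts with known changes.

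The members and gene lists were chosen with earlier results of these data known. Named genes are all T-box genes, up to 3 called genes per list and direction with the smallest p, and the flanking genes. Gli1 and the markers named outside this rule were chosen after their values were seen. Some genes that the rule names are not reported here. Promoter windows are from RefSeq's GRCr8 table, matched by symbol for 6 of 8 members, and their build may differ from that of the deposited coordinates. Alternatives were DESeq2 1.42.0, other scalings, no filter, limma 3.58.1 on log2(FPKM + 1) and log2(FPKM + 0.1), a replicate block, and each replicate left out.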

Additional observations from a re-analysis of the deposited data

How the results depend on the processing

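The count of genes called, 8914, stayed within 7838 to 9252 when each replicate was left out, with 4162 to 4878 higher and 3676 to 4374 lower. Left-out replicates gave 1 to 2 further T-box genes called higher, and 3 to 7 upstream regulators called higher, with 2 and 7 reached without Control replicate 1. On log2(FPKM + 1) with limma, called counts were 2 higher and 1 lower for partner factors, 5 lower for described targets, 5 lower for upstream regulators and 7 higher for flanking genes, with 11800 genes tested. Upper-quartile scaling gave 6 corepressors called lower. With 1 tested gene on each side, 3 flanking genes were called higher and 3 lower, and with 5 on each side 18 and 11, since other numbers of genes were counted. Members near 0 numbered 0 at 3 counts, 3 at 30 counts and 2 to 3 without 1 replicate.

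The log2 changes of Tbx1, Tbx2, Tbx3 and Tbx15 were positive in every setting run, and 1.86, 1.58, 1.67 and 1.64 on log2(FPKM + 1), a scale that understates changes of low genes. That of Tbx18 was 0.06 to 0.17 without 1 replicate. Signs turned only for flanking genes that did not pass: Septin5 was at -0.05 with upper-quartile scaling, and without 1 replicate its log2 change ran from -0.05 to 0.06, that of Wdr3 from -0.14 to 0.03, Sds from -0.05 to 0.41, Wars2 from -0.19 to 0.17, Zfp697 from -0.17 to 0.07 and Tent5c from -0.60 to 0.14. The cause was not tested. With the replicate number as a block 8440 genes were called, Tbx2 was at 3.59 and the lists lost or gained at most 2 calls. Deviations of same-numbered samples from their group means correlated at -0.08, -0.01 and -0.01. With 3 libraries per group that differ beyond sampling noise, these values cannot show whether the numbers pair the samples.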

Other observations

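Several genes of the lists fell outside the rule for named genes and were chosen after their values were seen. Aldh1a2, which makes retinoic acid in embryonic mesenchyme, had 95, 74 and 92 counts in Control and 0, 3 and 0 in rShh (edgeR adjusted p = 5.00e-05). Hand2, a partner of T-box factors in limb and heart, had 6, 0 and 0 counts in Control and 51, 52 and 78 in rShh (edgeR adjusted p = 0.00194). Sall1 had 32, 0 and 16 counts against 118, 170 and 125 (edgeR adjusted p = 0.00823). Has2, a hyaluronan synthase described as a Tbx2 target, rose from 394, 229 and 210 counts to 957, 1170 and 1163 (edgeR adjusted p = 3.92e-05). Each of these genes, and the 3 forkhead genes named next, kept its call in all 6 fits that left out 1 replicate. Without Control replicate 1 the log2 change of Hand2 went from 4.56 to 8.79, where both remaining Control libraries were at 0, and that of Sall1 from 2.79 to 3.71. Without rShh replicate 2, the one with counts of Aldh1a2, its fitted log2 change was -9.56, with both remaining rShh libraries at 0. The forkhead genes Foxc2, Foxa2 and Foxa1 fell, by 1.14, 1.83 and 2.04 on the log2 scale, while Foxc1 rose.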
